A study of Drosophila melanogaster with 24 samples.

Results

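The DNA replication genes described here are 38 named genes that encode the proteins which mark, license, open and copy the DNA of a dividing cell. Membership was set by symbol, with no threshold on a measured value, but with earlier results of these data known. Counts for these genes are therefore descriptions beside those of all loci, not independent tests. A gene was taken as found when its symbol stood in the gene column of all 7 deposited tables. Of the 38 symbols, 37 were found among 14542 gene loci, and RfC40 was not found under that symbol. All 37 reached a mean of at least 1 FPKM (fragments per kilobase of transcript scaled to the number of mapped fragments) over the groups, as did 7748 loci in all. Every share of all loci given below is a share of these 7748.

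The cells were S2 cells, a Drosophila line grown in culture, labelled as wild type in all groups. Each culture had received dsRNA for 4 days, directed against GFP (a control, named GFP RNAi), Sin3A, lid, or both Sin3A and lid (dual knockdown). Sin3A encodes the scaffold of a histone deacetylase complex, and lid encodes the histone demethylase dKDM5/LID that associates with it. The same 4 dsRNA treatments were also carried out in cells given 8.3 mM paraquat, a generator of superoxide, for 24 h. The resulting 8 groups had 3 biological replicates each, 24 samples in all, but the authors combined the replicates, so that 1 deposited FPKM value describes a group. No spread between replicates can therefore be given for a single value, and the number of reads behind a value is unknown. The labels do not say whether stressed and unstressed groups were split from the same cultures.

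Before a chromosome is copied, the origin recognition complex (ORC) binds origins and, with the licensing factor Cdt1, loads the MCM helicase in an inactive form. In S phase this ring is activated by Cdc45 and the GINS complex, and DNA polymerases with their sliding clamp, clamp loader and single-strand binding protein then copy both strands. Many of these genes are transcribed most strongly around the entry into S phase and are textbook targets of E2F in flies. In RNA from a whole culture, a smaller number of cells in S phase and less transcript in each cell cannot be told apart.

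The replication genes made up a smaller part of the transcriptome in every group than in GFP RNAi cells without paraquat. Without paraquat their summed level was 1683 FPKM with GFP dsRNA, 1368 with Sin3A dsRNA, 1577 with lid dsRNA and 1309 with both. With paraquat it was 1203, 958, 1130 and 907 FPKM in the same order. Each dsRNA group thus stood lower with paraquat than without, and the 2 groups that combined Sin3A dsRNA with paraquat stood lowest. The share of all summed FPKM that these genes took went from 0.211% in the control to 0.112% in the dual knockdown with paraquat.

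To put an error on such differences, the 8 group values of each locus were fitted on the log2(FPKM + 0.1) scale as the sum of a Sin3A dsRNA effect, a lid dsRNA effect and a paraquat effect (limma, Benjamini-Hochberg adjustment over 7748 loci, called at an adjusted p under 0.05). Each effect averages 4 pairs of groups that share no group and differ in only that factor, and its standard error (SE) measures how far the groups depart from a plain sum, not how far replicates differ. Under paraquat, 35 of the 37 genes fell and 0 rose, with a median of -0.58, where 21.6% of all loci fell and the median was -0.01. Under Sin3A dsRNA, 29 fell and 1 rose, with a median of -0.41, where 26.4% of all loci fell, 26.1% rose and the median was -0.01. Under lid dsRNA 2 fell and 0 rose, with a median of -0.11, where 2.07% of all loci fell. Centring each group on its median changed the split of all paraquat calls from 1176 higher and 1675 lower to 1584 higher and 1322 lower, and 35 replication genes were still called lower.

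**Figure D1:**
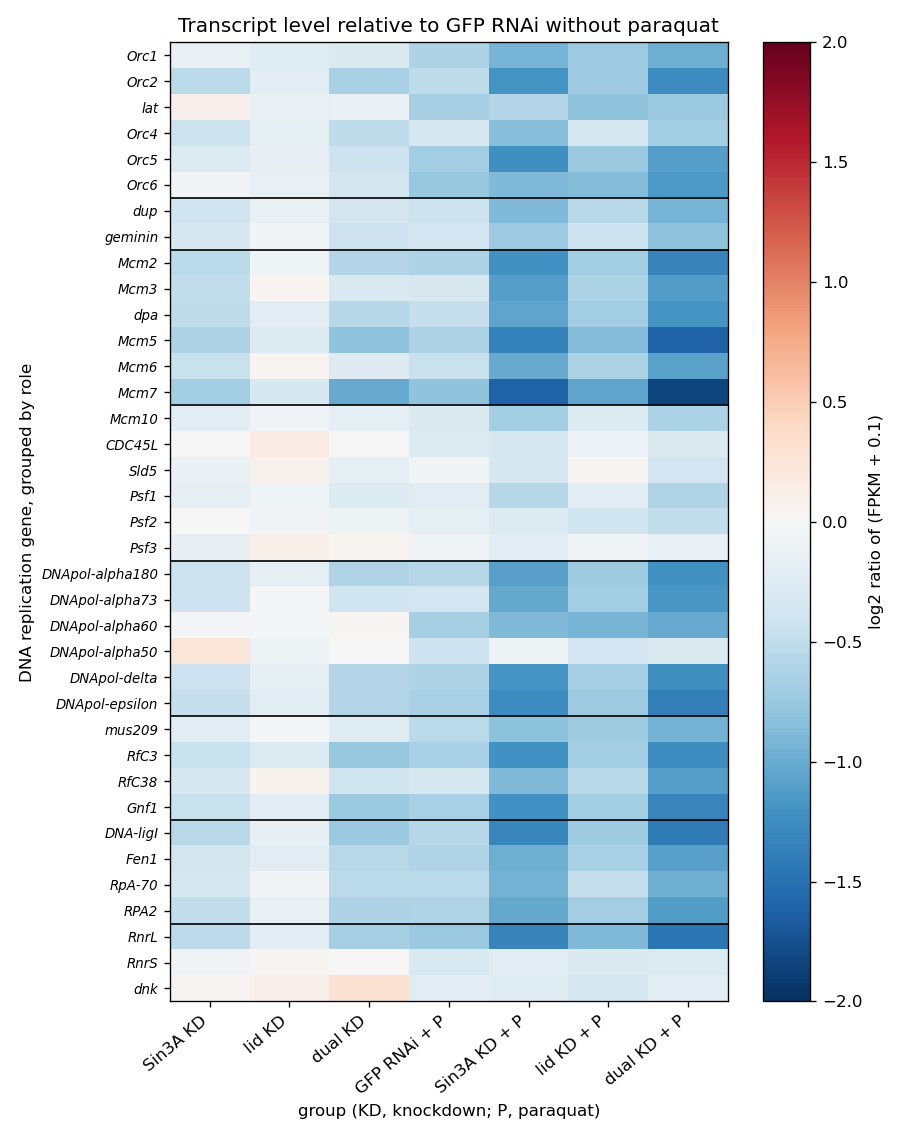
Level of each of the 37 replication genes in 7 groups, as the log2 ratio of (FPKM + 0.1) to GFP RNAi cells without paraquat, with rows grouped by role and separated by lines (KD, knockdown; P, paraquat; each cell is 1 pooled value). All 37 genes lie below 0 in the right-hand column, from 1.11-fold lower for Psf3 to 3.59-fold lower for Mcm7.

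The direction of the paraquat change was the same for every replication gene in every background. All 37 were lower with paraquat in each of the 4 dsRNA backgrounds, as were 30.9% of all loci. For 18 of the 37, the values of the 4 paraquat groups all lay below those of the 4 groups without it, against 8.93% of all loci. With Sin3A dsRNA, 31 genes were lower in all 4 pairs and 2 were higher in all 4, against 34.1% and 33.2% of all loci. Complete separation by Sin3A dsRNA was seen for Orc4 and Sld5, 2 of the 37, against 13.6% of all loci. With lid dsRNA, 20 genes were lower in all 4 pairs and 1 was higher, against 15.5% and 16.8% of all loci.

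The origin recognition complex holds 6 subunits, all of them called lower under paraquat, with effects from -0.77 to -0.27. The loci of all these subunits except lat overlap other loci, so their values may include reads of such neighbours. In the text below, values without paraquat are given in the order GFP RNAi, Sin3A knockdown, lid knockdown and dual knockdown, followed by the paraquat groups in the same order. Orc1, which carries an ATPase of the complex, stood at 9.28, 8.33, 7.88 and 7.55 FPKM and, with paraquat, at 6.02, 4.85, 5.57 and 4.67 FPKM. Orc2, a core subunit, stood at 19.8, 13.6, 16.8 and 12.6 FPKM, then at 13.9, 8.53, 11.9 and 8.22 FPKM. Values of lat, which encodes Orc3, were 19.4, 20.9, 17.6 and 17.7 FPKM without paraquat and 12.3, 12.9, 11.1 and 11.6 FPKM with it. These 3 subunits changed by similar amounts under paraquat and by different amounts under Sin3A dsRNA. Orc2 fell under both, by 0.57 (SE 0.053, limma adjusted p = 0.0011) under paraquat and by 0.54 (limma adjusted p = 0.00042) under Sin3A dsRNA. For lat the paraquat effect was -0.65 (SE 0.038, limma adjusted p = 0.00043), whereas its Sin3A effect was 0.06 (limma adjusted p = 0.23), with all 4 pairs slightly above 0. Orc1 fell by 0.64 (SE 0.063, limma adjusted p = 0.0014) under paraquat and by 0.19 (limma adjusted p = 0.041) under Sin3A dsRNA. The Sin3A call of Orc1 was lost when any group except the lid knockdown without paraquat was left out, with adjusted p up to 0.13.

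The other 3 ORC subunits differed in both effects. Orc4 stood at 34.0, 25.2, 30.1 and 23.9 FPKM without paraquat and 26.9, 18.8, 27.0 and 21.2 FPKM with it, in a locus that also holds the hormone gene ETH, so these values cannot be assigned to Orc4 alone. Orc5 stood at 14.7, 12.2, 13.1 and 11.04 FPKM, then at 9.08, 6.26, 8.76 and 6.79 FPKM. Orc6, which encodes the smallest subunit, stood at 31.5, 30.5, 28.5 and 24.5 FPKM, then at 18.5, 17.0, 17.3 and 14.2 FPKM. For Orc5 and Orc6 no paraquat group reached the lowest group without it. Only DNApol-alpha60 and Mcm7 had a larger paraquat fall among the 37 genes than Orc6, at -0.77 (SE 0.048, limma adjusted p = 0.00044), beside a Sin3A effect of -0.17 (limma adjusted p = 0.026). That Sin3A call was lost in 5 of the 8 fits that left out a group. Orc5 fell by 0.73 under paraquat (SE 0.069, limma adjusted p = 0.0011) and by 0.35 under Sin3A dsRNA (limma adjusted p = 0.0057). Orc4 fell least of the complex under paraquat, by 0.27 (SE 0.060, limma adjusted p = 0.016), and by 0.41 under Sin3A dsRNA (limma adjusted p = 0.0019). Without the group that combined the Sin3A knockdown and paraquat, the paraquat effect of Orc4 was -0.22, with an adjusted p of 0.0501.

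The helicase loader Cdt1, encoded by dup, and its inhibitor geminin both fell under paraquat and under Sin3A dsRNA. Values of dup were 41.1, 31.1, 37.1 and 31.9 FPKM without paraquat and 30.5, 22.3, 27.9 and 21.5 FPKM with it. Values of geminin were 81.9, 65.6, 78.6 and 61.5 FPKM, then 62.7, 49.7, 60.7 and 46.6 FPKM. The loader and its inhibitor thus moved in the same direction. The paraquat effect was -0.47 for dup (SE 0.046, limma adjusted p = 0.0014) and -0.39 for geminin (SE 0.030, limma adjusted p = 0.00067). The Sin3A effects were -0.36 (limma adjusted p = 0.0011) and -0.35 (limma adjusted p = 0.00028). Geminin was the steadiest of these, with a paraquat change between -0.40 and -0.37 in all 4 dsRNA backgrounds.

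The 6 subunits of the MCM helicase all fell under paraquat and all fell under Sin3A dsRNA, with medians of -0.64 and -0.55. Mcm7, on the plus strand of chromosome arm 3L (dm3 chr3L:8884696-8887410), stood at 65.6, 40.9, 52.4 and 32.7 FPKM without paraquat and 37.7, 21.3, 31.4 and 18.3 FPKM with it. Mcm5 (dm3 chr3R:6614250-6616872) stood at 45.1, 29.3, 37.7 and 25.8 FPKM, then at 29.3, 17.6, 24.7 and 14.6 FPKM. Mcm2 (dm3 chr3R:4090565-4093653) stood at 36.7, 25.2, 34.7 and 24.6 FPKM, then at 23.9, 15.9, 22.6 and 14.4 FPKM. In these 3 subunits the order of the groups was the same with and without paraquat, with GFP RNAi highest, lid knockdown next, then Sin3A knockdown and dual knockdown. Mcm7 was the highest subunit in the control and had dropped to the level of its partners in the dual knockdown with paraquat. It fell by 0.83 under paraquat (SE 0.042, limma adjusted p = 0.00031) and by 0.74 under Sin3A dsRNA (limma adjusted p = 0.00012), the largest Sin3A fall of the 37 genes. Mcm5 fell by 0.70 (SE 0.045, limma adjusted p = 0.00047) and by 0.66 (limma adjusted p = 0.00016). Mcm2 fell by 0.67 (SE 0.039, limma adjusted p = 0.00043) and by 0.57 (limma adjusted p = 0.00016).

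Of the remaining MCM subunits, Mcm3 and Mcm6 were less even across the lid dsRNA groups. Mcm3 stood at 25.4, 18.0, 26.0 and 20.5 FPKM without paraquat and 20.4, 11.8, 16.3 and 11.6 FPKM with it. The gene dpa, which encodes Mcm4, stood at 43.1, 30.4, 37.1 and 28.9 FPKM, then at 31.2, 20.6, 26.6 and 19.0 FPKM. Its groups stood in the same order as those of Mcm2, Mcm5 and Mcm7, with and without paraquat. Mcm6 stood at 42.3, 30.9, 43.8 and 35.2 FPKM, then at 31.1, 21.0, 27.1 and 20.1 FPKM. Mcm3 and Mcm6 had higher values with lid dsRNA than without it in the unstressed cells and lower values in the paraquat groups. The difference between their lid effects with and without paraquat was -0.28 for Mcm3 and -0.25 for Mcm6, with limma adjusted p of 0.090 and 0.069 in the fit with pairwise terms, so neither passed the threshold. Mcm3 fell by 0.60 under paraquat (SE 0.090, limma adjusted p = 0.0045) and by 0.53 under Sin3A dsRNA (limma adjusted p = 0.0034). The effects were -0.53 (SE 0.045, limma adjusted p = 0.00089) and -0.48 (limma adjusted p = 0.00036) for dpa. For Mcm6 they were -0.62 (SE 0.067, limma adjusted p = 0.0018) and -0.44 (limma adjusted p = 0.0022).

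In the fit of the 3 effects alone, the only calls under lid dsRNA were in this complex. Mcm7 fell by 0.28 (limma adjusted p = 0.025) and Mcm5 by 0.24 (limma adjusted p = 0.041), and both were lower with lid dsRNA in all 4 pairs. Neither call survived leaving out any 1 of the 8 groups, where adjusted p ran from 0.063 to 0.13 for Mcm7 and from 0.088 to 0.18 for Mcm5, though the effect stayed below 0 each time. With pairwise terms added to the fit, 16 of the 37 genes were called lower under lid dsRNA, where 837 of all 7748 loci were. The targeted gene lid itself was lower in its knockdown groups, at 37.2 FPKM with GFP dsRNA, 14.9 FPKM with its own dsRNA and 16.9 FPKM with both. At an unadjusted p under 0.05, 17 of the 37 replication genes passed for lid dsRNA, 32 for Sin3A dsRNA and 37 for paraquat, where 23.7%, 58.4% and 48.6% of all loci did.

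The helicase activators had smaller changes than the helicase they activate, a difference that was not tested. Their 6 genes had median effects of -0.28 under paraquat and -0.19 under Sin3A dsRNA, and 4 and 3 of them were called lower. The loci of CDC45L and Mcm10 overlap other loci, as does that of Mcm3 among the helicase subunits. The values of these genes may include reads of such neighbours. Sld5 stood at 17.1, 15.5, 18.2 and 15.1 FPKM without paraquat and 16.5, 13.3, 17.5 and 13.1 FPKM with it. Psf3 stood at 20.3, 18.1, 22.0 and 20.9 FPKM, then at 19.2, 17.4, 19.4 and 18.3 FPKM. These 2 GINS subunits were the only replication genes not called under paraquat, with effects of -0.13 (SE 0.051, limma adjusted p = 0.087) for Sld5 and -0.13 (SE 0.042, limma adjusted p = 0.057) for Psf3. Both were nevertheless below 0 in all 4 dsRNA backgrounds. Sld5 fell under Sin3A dsRNA, by 0.28 (limma adjusted p = 0.0043), while the value for Psf3 was -0.12 (limma adjusted p = 0.056).

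The other GINS subunits and their partners were lower under paraquat by small amounts. Psf1 stood at 27.0, 23.7, 25.4 and 22.3 FPKM without paraquat and 23.1, 18.2, 23.1 and 17.8 FPKM with it. Psf2 stood at 15.7, 15.8, 14.9 and 14.7 FPKM, then at 13.8, 13.0, 11.9 and 11.2 FPKM. Psf1 fell by 0.27 under each of paraquat (SE 0.048, limma adjusted p = 0.0084) and Sin3A dsRNA (limma adjusted p = 0.0040), whereas Psf2 fell by 0.30 under paraquat (SE 0.045, limma adjusted p = 0.0048) and had a Sin3A effect of -0.05 (limma adjusted p = 0.41). CDC45L, which encodes Cdc45, stood at 16.0, 15.9, 17.9 and 15.9 FPKM, then at 13.3, 12.5, 14.7 and 13.1 FPKM. Mcm10, a replication factor that is not part of the MCM ring, stood at 17.3, 14.8, 16.4 and 15.3 FPKM, then at 14.1, 10.7, 14.3 and 11.1 FPKM. CDC45L fell by 0.29 under paraquat (SE 0.043, limma adjusted p = 0.0042), with a Sin3A effect of -0.11 (limma adjusted p = 0.078), and Mcm10 fell by 0.35 (SE 0.058, limma adjusted p = 0.0062) and by 0.27 (limma adjusted p = 0.0092).

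The levels of the ring and of its activator lay closer together in the stressed and Sin3A dsRNA groups than in the control. FPKM is per length, so mean levels over subunits can be set side by side. The mean over the 6 MCM subunits was 43.0 FPKM in the control and 16.3 FPKM in the dual knockdown with paraquat, while the mean over the 4 GINS subunits was 20.0 and 15.1 FPKM. The ratio of the 2 means was 2.15, 1.60, 1.92 and 1.53 without paraquat and 1.59, 1.17, 1.38 and 1.08 with it. It was therefore lower in every paraquat group than in its unstressed counterpart, and lower with Sin3A dsRNA than without. This ratio was chosen after the values had been seen and carries no test.

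**Figure D2:**
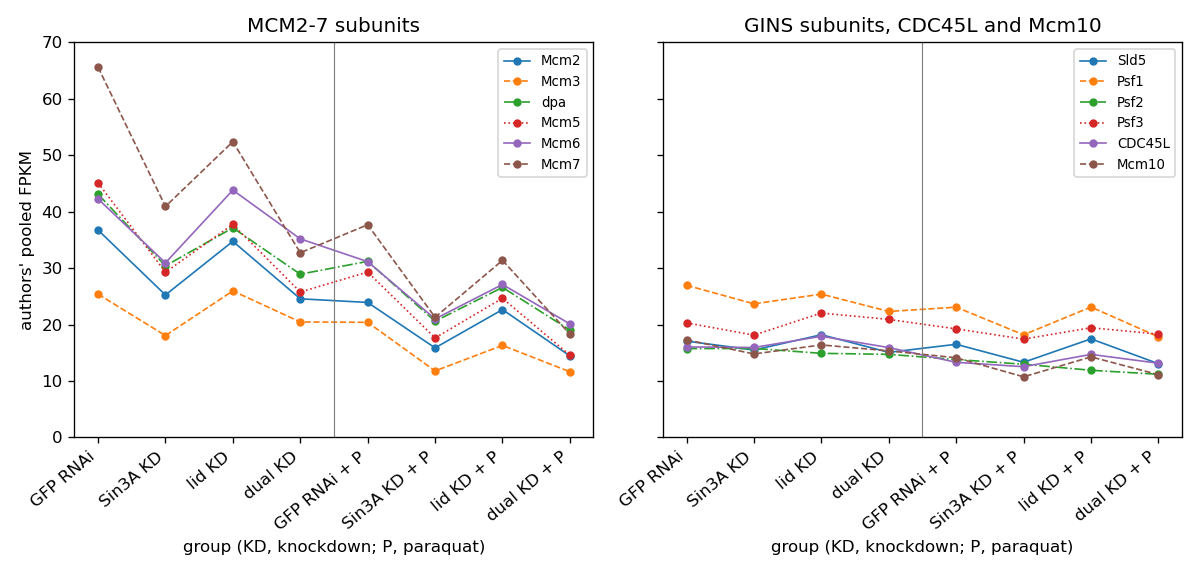
FPKM of the 6 MCM subunits (left) and of the 4 GINS subunits, CDC45L and Mcm10 (right) in the 8 groups, 1 pooled value per point, with no error bars because replicates were combined (KD, knockdown; P, paraquat; lines only join the values of a gene). The MCM subunits range from 25.4 to 65.6 FPKM in GFP RNAi cells and from 11.6 to 20.1 FPKM in the dual knockdown with paraquat, while the mean of the GINS subunits goes from 20.0 to 15.1 FPKM.

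Among the replicative polymerases, all 6 genes fell under paraquat and 4 fell under Sin3A dsRNA. DNApol-alpha180, the catalytic subunit of polymerase alpha, stood at 23.6, 17.5, 20.6 and 15.6 FPKM without paraquat and 15.8, 11.03, 14.4 and 10.2 FPKM with it. DNApol-alpha73, the accessory subunit of the same enzyme, stood at 21.9, 16.4, 21.4 and 16.6 FPKM, then at 16.8, 10.7, 13.4 and 9.72 FPKM. Both followed the MCM pattern of a fall under either condition. The polymerase alpha genes fell by 0.59 (SE 0.039, limma adjusted p = 0.00049) and 0.61 (SE 0.069, limma adjusted p = 0.0021) under paraquat and by 0.46 (limma adjusted p = 0.00028) and 0.47 (limma adjusted p = 0.0019) under Sin3A dsRNA, in the order DNApol-alpha180 and DNApol-alpha73. DNApol-delta, the catalytic subunit of the polymerase that makes most of the lagging strand, stood at 18.3, 13.8, 16.2 and 12.2 FPKM, then at 11.9, 8.005, 11.5 and 7.75 FPKM. DNApol-epsilon, the catalytic subunit of the main leading-strand polymerase, was the lowest of these, at 11.9, 8.67, 10.2 and 7.92 FPKM, then at 7.57, 4.996, 7.16 and 4.54 FPKM. DNApol-delta fell by 0.64 under paraquat (SE 0.053, limma adjusted p = 0.00085) and by 0.49 under Sin3A dsRNA (limma adjusted p = 0.00060), and DNApol-epsilon by 0.68 (SE 0.063, limma adjusted p = 0.0011) and by 0.51 (limma adjusted p = 0.00093).

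The primase subunits, which lay down the RNA primer in a complex with polymerase alpha, were not called lower under Sin3A dsRNA, unlike their partners, and that difference was not tested. DNApol-alpha60, the large primase subunit (dm3 chr3L:20352933-20354685, minus strand), stood at 16.7, 16.3, 16.3 and 17.0 FPKM without paraquat and 10.5, 9.05, 8.72 and 8.27 FPKM with it. The 4 unstressed values were nearly equal and the 4 paraquat values all lay far below them. Its paraquat effect of -0.86 (SE 0.067, limma adjusted p = 0.00070) was the most negative of the 37 genes, and its Sin3A effect was -0.07 (limma adjusted p = 0.46). In the dual knockdown it was 2.06-fold lower with paraquat, the only replication gene past 2-fold in a pair that differed in paraquat alone. The locus of DNApol-alpha50, the catalytic primase subunit, also holds CG7083 and Pex2, so its values cannot be assigned to 1 gene. That locus stood at 42.8, 50.5, 39.997 and 42.6 FPKM, then at 32.1, 39.9, 32.7 and 35.2 FPKM. It fell by 0.33 under paraquat (SE 0.050, limma adjusted p = 0.0048) and was the only member called higher under Sin3A dsRNA, by 0.19 (limma adjusted p = 0.021). The latter call was lost in 5 of the 8 fits that left out a group, with adjusted p up to 0.081, and with it the only rise among these genes.

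**Figure D3:**
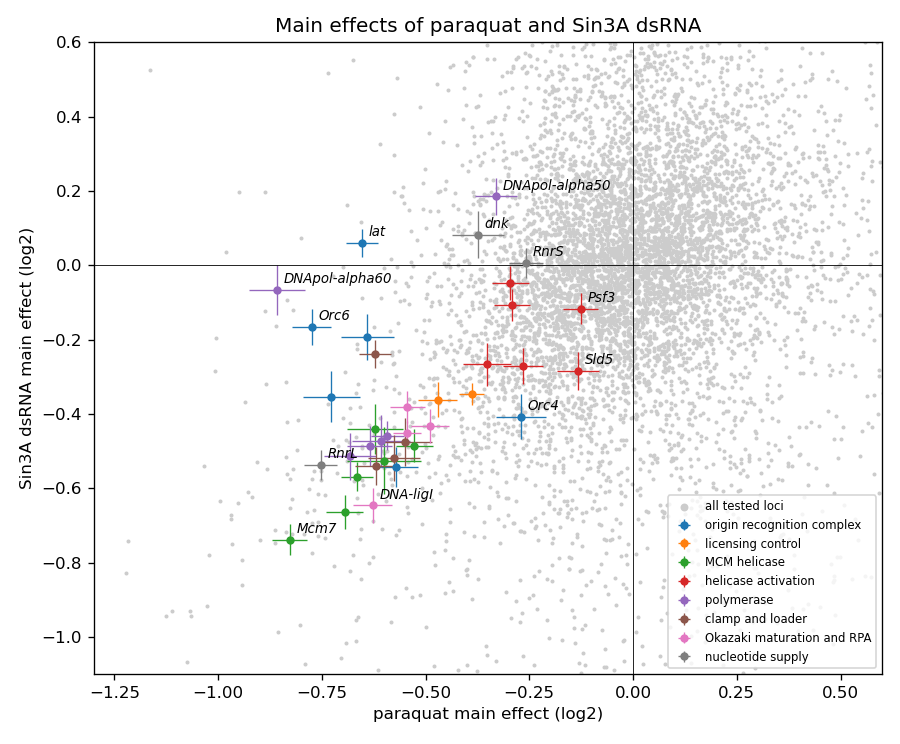
Paraquat effect (x axis) and Sin3A dsRNA effect (y axis), both in log2 units from the limma fit, for the 37 replication genes coloured by role with bars of 1 standard error, over all tested loci in grey (loci beyond the axis limits are not drawn). All 37 genes lie left of 0, Mcm7 lies lowest at -0.74 on the y axis, and DNApol-alpha60 lies farthest left at -0.86 with a Sin3A effect of -0.07.

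The sliding clamp and its loader fell under both conditions. The clamp PCNA, encoded by mus209, was the highest of the replication genes in GFP RNAi cells, with 166.2, 142.6, 161.7 and 139.8 FPKM without paraquat and 114.95, 93.9, 101.9 and 86.7 FPKM with it. The 2 ranges did not overlap. Its paraquat effect was -0.62 (SE 0.038, limma adjusted p = 0.00044) and its Sin3A effect -0.24 (limma adjusted p = 0.0026), the smallest Sin3A fall of the clamp and loader genes. Gnf1, the large subunit of the loader, stood at 56.7, 41.4, 48.9 and 33.9 FPKM, then at 36.1, 24.4, 34.9 and 22.6 FPKM. RfC3, a small subunit, stood at 44.7, 32.7, 37.2 and 26.4 FPKM, then at 28.4, 19.3, 28.0 and 18.8 FPKM. RfC38, another small subunit, stood at 27.5, 21.8, 28.7 and 20.8 FPKM, then at 21.9, 14.9, 18.7 and 12.7 FPKM. All 3 loader genes were lowest in the dual knockdown with paraquat, from 2.16-fold to 2.50-fold below the control. Gnf1 fell by 0.62 under paraquat (SE 0.051, limma adjusted p = 0.00082) and by 0.54 under Sin3A dsRNA (limma adjusted p = 0.00038). RfC3 fell by 0.58 (SE 0.062, limma adjusted p = 0.0018) and by 0.52 (limma adjusted p = 0.00084), and RfC38 by 0.55 (SE 0.066, limma adjusted p = 0.0023) and by 0.48 (limma adjusted p = 0.0014). The loader subunit RfC40 was not among the symbols of the tables, although a RefSeq annotation lists the name as an older one of RfC4, which is not counted here.

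The genes that finish Okazaki fragments and coat single-stranded DNA fell as a block. DNA-ligI, the ligase that joins the fragments, stood at 27.1, 18.3, 24.1 and 16.2 FPKM without paraquat and 18.3, 10.9, 16.6 and 10.1 FPKM with it. Fen1, the flap endonuclease, stood at 31.5, 24.5, 27.3 and 21.4 FPKM, then at 20.7, 15.9, 20.1 and 14.9 FPKM. Of the 4 genes, DNA-ligI had the largest effect of either kind, at -0.63 for paraquat (SE 0.047, limma adjusted p = 0.00063) and -0.65 for Sin3A dsRNA (limma adjusted p = 0.00018). Fen1 fell by 0.54 (SE 0.042, limma adjusted p = 0.00069) and by 0.38 (limma adjusted p = 0.00063). RpA-70, the large subunit of the single-strand binding protein RPA, stood at 125.0, 97.5, 119.3 and 85.6 FPKM, then at 86.0, 65.2, 89.8 and 63.7 FPKM. RPA2, the middle subunit, stood at 105.8, 74.8, 95.4 and 69.1 FPKM, then at 69.6, 51.7, 65.2 and 48.9 FPKM. The 2 subunits kept nearly equal changes, with paraquat effects of -0.49 for RpA-70 (SE 0.046, limma adjusted p = 0.0011) and -0.54 for RPA2 (SE 0.033, limma adjusted p = 0.00044) and Sin3A effects of -0.43 (limma adjusted p = 0.00052) and -0.45 (limma adjusted p = 0.00018). RpA-70 (dm3 chr3R:4087842-4090171, minus strand) lies next to Mcm2 and is transcribed away from it, with 393 bases between the loci.

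Among the nucleotide supply genes, all 3 fell under paraquat and 1 fell under Sin3A dsRNA. Ribonucleotide reductase, which makes deoxynucleotides, is built of a large subunit, RnrL, and a small subunit, RnrS. RnrL (dm3 chr2L:10325026-10327943, minus strand) stood at 101.5, 70.8, 86.9 and 63.8 FPKM without paraquat and 60.9, 39.9, 55.0 and 36.8 FPKM with it. RnrS stood at 155.6, 148.3, 157.8 and 156.0 FPKM, then at 126.5, 135.1, 126.7 and 128.4 FPKM. RnrL fell under both conditions, by 0.75 under paraquat (SE 0.039, limma adjusted p = 0.00031) and by 0.54 under Sin3A dsRNA (limma adjusted p = 0.00018), whereas RnrS fell by 0.26 under paraquat (SE 0.041, limma adjusted p = 0.0053) and had a Sin3A effect of 0.01 (limma adjusted p = 0.90). The ratio of RnrS to RnrL was 1.53, 2.09, 1.82 and 2.44 without paraquat and 2.08, 3.38, 2.30 and 3.49 with it. It was lowest in the control and highest in the dual knockdown with paraquat, a comparison chosen after the values had been seen and given without a test. The deoxyribonucleoside kinase gene dnk, of the salvage pathway, stood at 82.7, 85.9, 88.9 and 101.7 FPKM, then at 71.2, 69.7, 65.2 and 70.4 FPKM. It fell by 0.37 under paraquat (SE 0.063, limma adjusted p = 0.0064), and its Sin3A effect was 0.08 (limma adjusted p = 0.31).

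Pair by pair, the number of replication genes over 1.4-fold lower, the fold used in the study, differed by factor. These counts compare single pooled values and carry no test. With paraquat, 20 of 37 were past this fold in cells with GFP dsRNA, 25 with Sin3A dsRNA, 20 with lid dsRNA and 25 with both, where 5.46%, 7.77%, 4.23% and 5.16% of all loci were that much lower. The members' median log2 ratios were -0.53, -0.61, -0.49 and -0.60. With Sin3A dsRNA, 9 were past this fold alone and 6 on top of lid dsRNA, against 12.6% and 9.4% of all loci. In cells with paraquat the counts were 18 and 13, against 12.4% and 9.58% of all loci. The 9 genes over 1.4-fold lower in the Sin3A knockdown without paraquat were Mcm2, Mcm3, dpa, Mcm5, Mcm7, Orc2, RnrL, DNA-ligI and RPA2, by 1.41-fold to 1.60-fold. No gene passed 1.4-fold with lid dsRNA in any of its 4 pairs, where 4.79%, 2.99%, 4.22% and 1.78% of all loci did in the order of no other dsRNA, Sin3A dsRNA, paraquat alone, and Sin3A dsRNA with paraquat. The dual knockdown had 16 past this fold relative to GFP RNAi without paraquat and 18 with it, against 14.2% and 13.7% of all loci. None of the 37 was over 1.4-fold higher in any of these 14 pairs.

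**Figure D4:**
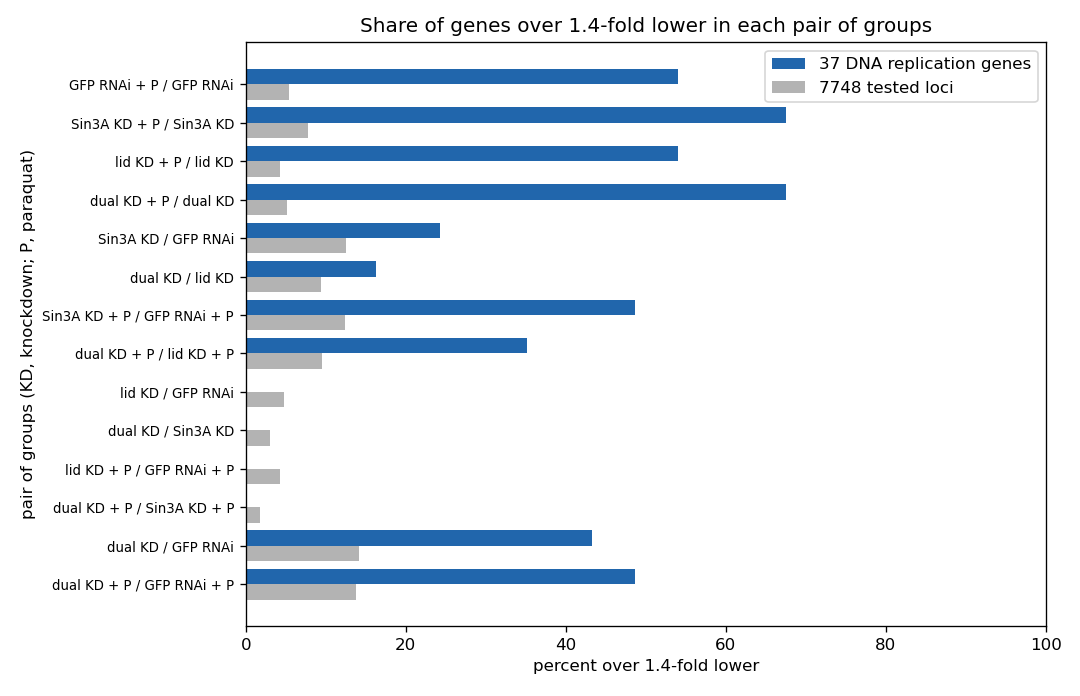
Percent of the 37 replication genes (blue) and of the 7748 tested loci (grey) that were over 1.4-fold lower in each of 14 pairs of groups (KD, knockdown; P, paraquat; bars start at 0 and show single pooled values without error). In the 4 paraquat pairs 20 or 25 of 37 genes pass, in the 4 lid dsRNA pairs 0 of 37 pass.

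The genes ranked alike by their Sin3A change with and without paraquat, though the changes differed in size. The members' median log2 ratio of the Sin3A knockdown to GFP RNAi was -0.36 without paraquat and -0.45 with it. Across the 37 genes the log2 ratio of the Sin3A knockdown to GFP RNAi without paraquat and the same ratio with paraquat had a Pearson's r of 0.943 and a Spearman's rho of 0.929, and over all 7748 loci 0.145 and 0.801. These pairs share no group, but genes are not independent replicates, and no p-value is given. The paraquat log2 ratios in GFP RNAi cells and in the dual knockdown had an r of 0.675 and a rho of 0.629 across the 37 genes, and 0.072 and 0.466 over all loci. Sin3A dsRNA without paraquat and paraquat in the lid knockdown had an r of 0.292 and a rho of 0.348 across the 37 genes, and -0.045 and 0.150 over all loci. Sin3A dsRNA on top of lid dsRNA and paraquat in GFP RNAi cells had an r of 0.439 and a rho of 0.426 across the 37 genes, and 0.164 and 0.265 over all loci. All 37 genes were lower with paraquat in every dsRNA background, so a paraquat fall does not set apart genes with a large Sin3A fall, such as Mcm7 and DNA-ligI. DNApol-alpha60, lat and Orc6 had large paraquat falls with Sin3A effects near 0 or small.

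Whether the effect of 1 factor differed with another was asked by adding the pairwise terms to the fit, which leaves 1 residual degree of freedom before the errors are shared among loci. None of the 37 genes was called in any of the 3 terms by limma. Among all loci 0.0258% were called for Sin3A dsRNA with lid dsRNA, 0.0258% for Sin3A dsRNA with paraquat and 3.91% for lid dsRNA with paraquat. At an unadjusted p under 0.05, 7, 6 and 11 of the 37 genes passed in the same order, or 18.9%, 16.2% and 29.7%, against 22.4%, 18.4% and 35.8% of all loci. The term for Sin3A dsRNA with paraquat was below 0 in 32 of 37 genes, with a median of -0.10, where 52.9% of all loci were below 0. A term below 0 means a lower Sin3A log2 ratio with paraquat than without it. The terms of all 37 genes come from the same 8 groups, and genes are not independent replicates. The smallest limma adjusted p of this term among the 37 was 0.26, so no single gene carries this difference past the threshold. The genes under an unadjusted p of 0.05 for that term were Mcm3, Mcm10, Psf1, DNA-ligI, Mcm5 and Sld5, with values from -0.22 to -0.16.

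The sum of the changes was seen in the dual knockdown with paraquat against GFP RNAi without it. All 37 genes were lower, by a median of 2.12-fold, and 21 of them by over 2-fold, as were 6.38% of all loci. Mcm7 was lower by 3.59-fold, Mcm5 by 3.10-fold, RnrL by 2.76-fold, DNA-ligI by 2.67-fold and DNApol-epsilon by 2.63-fold. At the other end stood Psf3 at 1.11-fold, dnk at 1.18-fold, RnrS at 1.21-fold, CDC45L at 1.22-fold and the locus of DNApol-alpha50 at 1.22-fold lower. Both ends thus hold a ribonucleotide reductase subunit and a polymerase or primase gene.

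Genes near replication in function but outside the 37 were mixed. Beside the counts that follow, 21.6% of all loci fell under paraquat, and 1176 of 7748 rose. Under Sin3A dsRNA 26.4% of all loci fell and 26.1% rose. Of 13 further licensing, firing and fork genes, 10 fell and 1 rose under paraquat, with a median of -0.37, and 4 fell and 4 rose under Sin3A dsRNA, with a median of -0.09. The 10 include l(3)72Ab, better known as a splicing helicase, which fell by 0.22 (limma adjusted p = 0.040). Cdc6, which works with ORC to load the helicase, fell by 0.37 under paraquat (limma adjusted p = 0.0078) and rose by 0.27 under Sin3A dsRNA (limma adjusted p = 0.013). CG2990, which encodes Dna2, a nuclease of Okazaki fragments, fell by 0.61 under paraquat (limma adjusted p = 0.0017) and by 0.71 under Sin3A dsRNA (limma adjusted p = 0.00032). Claspin, a replication checkpoint mediator, fell by 0.43 under paraquat (limma adjusted p = 0.0018) and rose by 0.20 under Sin3A dsRNA (limma adjusted p = 0.013). So the genes of this list fell with paraquat more often than with Sin3A dsRNA by these counts, and the difference was not tested. Its Sin3A counts were near the shares of all loci. All 8 genes of chromatin assembly in S phase fell under paraquat and 6 fell and 1 rose under Sin3A dsRNA, with medians of -0.32 and -0.19, among them Slbp, which binds histone mRNA, with -0.29 and -0.27.

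Other nucleotide supply genes did not fall as a group. Of 9 tested, 2 fell and 1 rose under paraquat, and 2 fell and 4 rose under Sin3A dsRNA. The falls were near the shares of all loci, 21.6% under paraquat and 26.4% under Sin3A dsRNA, where 26.1% rose. Ts, which encodes thymidylate synthase, stood at 80.3 FPKM in the control and 20.6 FPKM in the dual knockdown with paraquat, with effects of -0.80 (limma adjusted p = 0.0038) and -0.97 (limma adjusted p = 0.00076). Dak1, a nucleoside monophosphate kinase, rose by 0.67 under Sin3A dsRNA (limma adjusted p = 0.00025). Of 6 other DNA polymerases, 2 fell and 1 rose under either condition, with the same shares of all loci beside them. Among 11 regulators of the G1/S transition, 6 fell and 1 rose under paraquat and 8 fell and 2 rose under Sin3A dsRNA, with medians of -0.24 and -0.18. The E2F subunits rose slightly under Sin3A dsRNA, E2f by 0.18 (limma adjusted p = 0.0056) and Dp by 0.28 (limma adjusted p = 0.0029), while the repressive family member E2f2 fell by 0.11 (limma adjusted p = 0.043). Cdk4 fell by 0.85 (limma adjusted p = 0.00012) and Dref, a transcription factor of replication gene promoters in flies, by 0.45 (limma adjusted p = 0.00028).

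The fall was not confined to replication. Of 12 genes of G2/M and mitosis, 11 fell under paraquat and 11 under Sin3A dsRNA, against 21.6% and 26.4% of all loci. Their medians were -0.60 and -0.51, close to -0.58 and -0.41 of the replication genes. The mitotic kinase gene polo stood at 117.6 FPKM in the control and 36.3 FPKM in the dual knockdown with paraquat, with effects of -0.67 (limma adjusted p = 0.00082) and -0.78 (limma adjusted p = 0.00018). Under lid dsRNA, 0 of the 12 were called, against 352 of all 7748 loci.

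Across the series, the summed FPKM of a group ran from 749891 to 814105 and between 7537 and 7764 loci reached 1 FPKM. Sin3A transcript was not lower in a clear way in the groups labelled as its knockdown, at 67.9 FPKM in GFP RNAi, 61.7 in the Sin3A knockdown and 58.0 in the dual knockdown, with a Sin3A effect of -0.12 (limma adjusted p = 0.059). The study followed this knockdown as SIN3 protein by western blot, and within the transcript values used here the Sin3A groups are known by their labels. Of the hemocyte markers, which fit S2 cells, srp ran from 52.6 to 85.7 FPKM and Pxn from 23.6 to 151 FPKM, while Hml, a defining marker, was near 0 at 0.17 to 0.78 FPKM. Of 6 such markers tested, 5 fell under paraquat, against 21.6% of all loci. Under Sin3A dsRNA 4 fell and 1 rose, against 26.4% and 26.1% of all loci. Most of them thus moved with the replication genes, and their part in the result was not tested. Germline, follicle and fat body markers were each at or under 1.2 FPKM in all groups, as were the neuron markers n-syb and brp and the muscle markers Mhc and up. Of the remaining neuron and muscle markers, elav ran from 3.2 to 5.0 FPKM and rose by 0.50 under Sin3A dsRNA (limma adjusted p = 0.0013). Mef2 ran from 15.5 to 23.7 FPKM and rose by 0.43 under Sin3A dsRNA (limma adjusted p = 0.00030) and by 0.17 under paraquat (limma adjusted p = 0.017), and the part of either in the results was not tested. The loci of 15 of the 37 genes overlap another locus. These genes are Mcm3, Mcm10, Orc1, Orc2, Orc4, Orc5, Orc6, CDC45L, dup, DNApol-alpha180, DNApol-delta, RfC38, dnk, DNA-ligI and Fen1. The library protocol names no step that marks the strand, so reads of such neighbours cannot be told apart.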

How the data were processed

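RNA from S2 cells was sequenced in 8 groups of 3 biological replicates, and samples were grouped by the dsRNA and treatment named in their labels. Paired reads of 50 bases were aligned by the authors to dm3 (TopHat, Bowtie), and RefSeq genes were quantified with Cufflinks and Cuffdiff (versions are not given in the sources used here). The FPKM values that the authors deposited are 1 per group, computed over its combined replicates, in 7 tables that each set 1 group beside unstressed GFP RNAi. FPKM is normalized to depth and length, so it holds no read numbers, and a change in abundant transcripts can shift all others. The tables also hold the authors' own fold changes, test statistics, p-values and q-values, which were not used.

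The members and gene lists were chosen with earlier results of these data known, so their counts are descriptions beside those of all loci. A pseudocount of 0.1 FPKM was added before log2, and loci with a mean of at least 1 FPKM were kept. The main fit used limma 3.58.1 in R 4.3.3 with a variance trend, the 3 factors as terms and 4 residual degrees of freedom; a second fit added the 3 pairwise terms. The p-values rest on additivity across groups, not on replicates. Tables and plots used Python 3.11.15, pandas 2.3.3 and Matplotlib 3.10.9. The fit was tested on simulated data with additive effects and independent noise, a setting without interactions or errors shared among loci. Alternatives were a pseudocount of 1, no filter, a mean of at least 5 FPKM, median centring, no trend, loci with 1 gene name only, pairwise terms, folds of 1.2 and 2, and each group left out in turn. All members found were named. Genes outside them are examples from the fixed lists, and a list of fork genes holds l(3)72Ab, better known as a splicing helicase. Coordinates are those of the tables (dm3, counted from 1), strands come from a dm6 annotation matched by name, and promoter sequences were not analysed here.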

Additional observations from a re-analysis of the deposited data

How the results depend on the processing

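No paired analysis was possible because each column pools the 3 replicates of a group, so neither a replicate block nor leaving out 1 replicate could be run, and each group was left out instead. No effect changed sign among the called members in any of 15 alternatives. Every alternative that tested the gene kept 34 of the 35 paraquat calls (Orc4 was lost once) and 27 of the 30 Sin3A calls (not DNApol-alpha50, Orc1 and Orc6). None of the 2 lid calls was kept throughout. The loci of DNApol-alpha50 and Orc4 hold several gene names and were tested in 14 of the 15. With a group left out, 34 to 36 members were lower under paraquat, where 824 to 1655 of all 7748 loci were. Under Sin3A dsRNA 27 to 29 members were lower and 0 to 1 higher, where 1534 to 1962 loci were lower and 1567 to 1935 higher. Under lid dsRNA 0 members were lower, where 2 to 26 loci were. All loci called in either direction ran from 1413 to 2653, from 3101 to 3814 and from 3 to 72 in that order. With pairwise terms in the fit, 4600 loci were called for paraquat (2851 without them) and 1902 for lid dsRNA (352). Under lid dsRNA 16 members were lower (2), where 837 of all 7748 loci were (160). Under Sin3A dsRNA 2 members were higher (1), where 2614 loci were (2020). With loci of 1 gene name only, 0 members were higher under Sin3A dsRNA, because that setting leaves out DNApol-alpha50, the only member called higher in the main fit. Without the filter, 152 loci and 1 member were called for lid dsRNA, 182 loci for lid dsRNA with paraquat (303 with the filter) and 6 for Sin3A with lid dsRNA (2 with it). Without the variance trend, 266 loci and 1 member were called for lid dsRNA. In that setting 0 loci were called for Sin3A dsRNA with paraquat (2 with the trend), 6 for lid dsRNA with paraquat and 4 for Sin3A with lid dsRNA. At a mean of at least 5 FPKM the last 2 terms had 527 and 5 loci, after centring 458 and 4, and Sin3A with lid dsRNA had 4 with a pseudocount of 1 and 4 with loci of 1 gene name. The cause was not tested. At 2-fold, the members lower with paraquat were 0, 0, 0 and 1 in the GFP RNAi, Sin3A, lid and dual backgrounds (0.736% to 1.17% of all loci), 0 in each Sin3A dsRNA pair (1.69% to 4.23%), and 1 and 2 for the dual knockdown without and with paraquat (4.75% and 3.86%). At 1.2-fold, 32, 34, 32 and 34 were lower with paraquat in the same backgrounds (12.8% to 22.1% of all loci), 23 and 22 with Sin3A dsRNA without paraquat and 28 and 27 with it (20.2% to 23.0%), 2, 4, 4 and 1 with lid dsRNA (5.5% to 12.4%), and 26 and 31 in the dual knockdown (25.5% and 24.5%). The number of reads behind each pooled value is not known here, so no counting error can be given.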
